A study of Homo sapiens with 6 samples.

Results

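The centromere, kinetochore and spindle checkpoint genes were examined across 6 arrays of HCT-8 cells, an established human colon cancer line. Members were chosen by symbol: every gene named CENP followed by a single letter, and a list of 31 named genes of the kinetochore, its checkpoint, the chromosomal passenger complex and their partners. Of 51 symbols that meet this rule, 38 had a feature paired with them in the array annotation used, out of 14884 genes tested, and each had 1 feature. The other 13 were not analysed here: CENPB, CENPE, CENPF, CENPS, DSN1, MIS12, NSL1, NUF2, PMF1, SPC24, SPC25, ZW10 and ZWILCH.

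The cells carried a plasmid for a short hairpin RNA, either TRIB3-shRNA or Control-shRNA, and both groups had been selected in hygromycin for 14 days, starting 24 hours after transfection, and used as uncloned pools. There were 3 arrays in each group. Nothing in the labels says that the arrays of a group came from separate transfections or cultures, so the p-values reflect only how much these 6 samples vary, and that variation may be technical. Signals are RMA values on the log2 scale, so a difference of 1 is a 2-fold change, and a gene was called when its limma p-value, adjusted over all genes by Benjamini and Hochberg, was below 0.05.

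TRIB3, a pseudokinase gene and the target of the hairpin, went against the labels. It read 8.43, 8.48 and 8.27 under the TRIB3-shRNA label and 7.37, 7.14 and 7.48 in the controls, a difference of 1.07 (SE 0.14, limma adjusted p = 0.0041). Every direction below therefore follows the labels alone. Of the colon epithelial markers 7 of 8 were measured, among them EPCAM and CDX2, and all 7 lay above the median gene of every array. The measured markers of fibroblasts (1 of 5, DCN) and endothelium (2 of 3, PECAM1 and VWF) lay below the median gene of every array, as did the leukocyte marker CD14. The other measured leukocyte marker, the lysosomal gene CD68, lay above it, at 7.93 in both groups.

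The kinetochore is the protein assembly that joins a chromosome to the microtubules of the mitotic spindle. Its inner part, the constitutive centromere-associated network (CCAN), sits on nucleosomes that carry the histone variant CENP-A, and its outer part, the network of KNL1, MIS12 and NDC80 complexes, grips microtubule ends. Checkpoint proteins gather at unattached kinetochores and restrain CDC20, the activator of the anaphase-promoting complex, until every chromosome is attached. Many of these genes are transcribed mainly in the G2 and M phases, so in dividing tumour cells their messenger RNA can report on cycling as well as on the machinery itself.

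Among the 38 members there were 9 falls and 2 rises, and the other 27 did not pass. The share called was 28.9%, beside 9.64% of all 14884 genes. Members were chosen by symbol, but with earlier results of these data known. All 38 members lay above the 25th percentile of mean signal over all genes. When only genes above that level were fitted, 39.5% of members were called, beside 17.1% of those genes. Above the 50th percentile, 43.2% of the 37 members there were called, beside 25.8%. Members that fell were SGO1, CKAP2L, CENPC, NDC80, KNL1, CENPI, BUB1, KNTC1 and CENPP, and the background of genes called lower was 6.39%. CDC20 and CENPV rose, and the background of genes called higher was 3.25%. The median difference over all 38 members was -0.20, beside 0.04 over all genes. In the fit above the 50th percentile these medians were -0.19 and -0.04. At an unadjusted p of 0.05 the count was 21 of 38, beside 28.8% of all genes. In bulk RNA, fewer cells with a transcript and less of it per cell cannot be told apart.

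The calls depended on which arrays entered the fit. In all 11 called members, TRIB3-shRNA array 3 was the array of its group nearest to the controls, and Control-shRNA array 3 the control nearest to the TRIB3-shRNA arrays. Without both arrays numbered 3 there were 20 members called, 17 lower and 3 higher, among them all 11, beside 22.8% of all genes under that fit. Leaving out Control-shRNA replicate 1, Control-shRNA replicate 2 or TRIB3-shRNA replicate 2 left 0 members called by limma. The share of all genes called dropped as well, to 1.75%, 1.34% and 2.50%. At an unadjusted p below 0.05 there were still 17, 16 and 17 members, beside 2904, 2961 and 3284 of all 14884 genes. Leaving out TRIB3-shRNA replicate 1 left SGO1 alone, beside 3.41% of all genes.

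**Figure D1:**
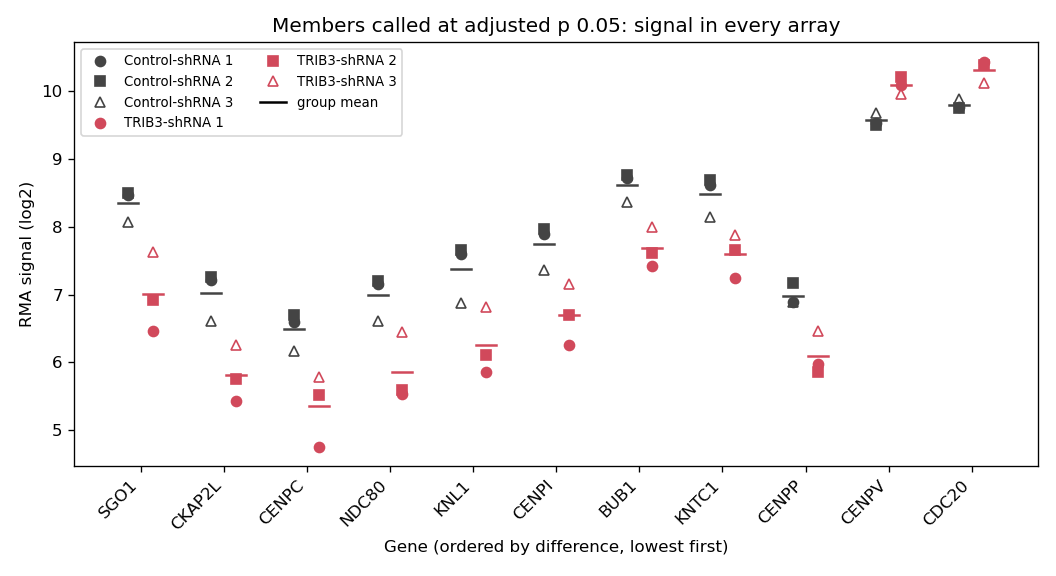
RMA signal on the log2 scale (vertical axis) of the 11 members called at an adjusted p of 0.05 (horizontal axis), with Control-shRNA arrays in grey, TRIB3-shRNA arrays in red, open triangles for the arrays numbered 3 and short lines for group means of 3 arrays. Groups do not overlap for any of the 11 genes, and in each gene the arrays numbered 3 are the nearest of the opposing groups; levels are to be compared within a gene only.

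Promoters of genes with peak expression in G2 and M often hold a cell cycle genes homology region (CHR), TTTGAA or TTTAAA, which the MuvB complex binds, together with CCAAT boxes bound by NF-Y. Both were searched on both strands, overlaps between motifs allowed, in RefSeq promoter windows of assembly GRCh38.p14 that run from 250 bases before to 50 bases after the gene start. A window was found for 30 of the 38 members. TTTGAA occurred in 14 of these 30 (46.7%), beside 11.8% of the 10749 windows of all genes tested, and TTTAAA in 2 (6.67%), beside 9.01%. A CCAAT box occurred in 19 (63.3%), beside 36.0%, and at least 2 of them in 12 (40.0%), beside 12.4%. A CHR of either form that began within 50 bases of the gene start occurred in 13 of 30 members (43.3%), beside 5.44% of all genes tested. A match describes letters only and is not evidence of a bound site. The CHR was not limited to members that moved: either form was found in 3 of 7 windows of members that fell, in 1 of 2 of those that rose and in 11 of 21 of those not called. Over all genes tested the share was 18.7%. Matches that began within 50 bases of the gene start were in 2 of those 7, 0 of those 2 and 11 of those 21.

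The 150 bases that end just before the gene start are shown for the called members that hold a whole CHR or CCAAT match there, so that a gene that rose can be set beside genes that fell. Capitals mark matches to the CHR and to the CCAAT box, on either strand.
CDC20: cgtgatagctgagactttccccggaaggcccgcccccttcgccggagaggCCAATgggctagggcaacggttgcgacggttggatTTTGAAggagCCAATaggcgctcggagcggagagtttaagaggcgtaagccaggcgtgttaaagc
BUB1: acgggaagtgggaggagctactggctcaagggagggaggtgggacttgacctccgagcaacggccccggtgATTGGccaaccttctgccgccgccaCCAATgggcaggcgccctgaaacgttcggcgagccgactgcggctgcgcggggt
SGO1: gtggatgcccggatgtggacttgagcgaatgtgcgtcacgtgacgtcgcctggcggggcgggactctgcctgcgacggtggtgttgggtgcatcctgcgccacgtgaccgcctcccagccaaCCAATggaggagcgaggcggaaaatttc
CKAP2L: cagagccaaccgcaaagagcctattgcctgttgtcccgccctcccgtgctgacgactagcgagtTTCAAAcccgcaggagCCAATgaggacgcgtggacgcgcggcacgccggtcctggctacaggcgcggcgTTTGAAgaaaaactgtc
CENPC: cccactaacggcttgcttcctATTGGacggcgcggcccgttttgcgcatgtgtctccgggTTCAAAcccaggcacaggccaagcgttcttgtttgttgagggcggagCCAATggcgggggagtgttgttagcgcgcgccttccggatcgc
The stretches lie at chr1:43358831-43358980 on the plus strand, and on the minus strand at chr2:110678064-110678213, chr3:20186207-20186356, chr2:112764610-112764759 and chr4:67545504-67545653. CDC20, which rose, carries a TTTGAA between a pair of CCAAT boxes, and CKAP2L, which fell, carries TTTGAA on each strand with a CCAAT box between them. BUB1 holds a pair of CCAAT boxes in opposite orientations and no CHR in this stretch, and SGO1 a single CCAAT box. CENPC holds a CHR between a pair of CCAAT boxes, as CDC20 does. In NDC80 a CHR match lies across the gene start, so its stretch is not shown. The stretches of CENPI, CENPP and CENPV held neither motif, and KNL1 and KNTC1 had no window.

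The centromere chromatin and CCAN genes gave 3 falls, 0 rises and 12 members that did not pass the test, out of 15 measured, and the median difference was -0.05. The share called was 20.0%, beside 9.64% of all genes. At an unadjusted p of 0.05 limma gave 4 lower and 1 higher. CENPC, the protein that ties the CENP-A nucleosome to the outer kinetochore (transcript cluster 16976362, chromosome 4), read 4.76, 5.52 and 5.78 under the TRIB3-shRNA label and 6.60, 6.70 and 6.17 in the controls. The groups did not overlap, and the difference was -1.13 (SE 0.26, 2.19-fold lower, limma adjusted p = 0.0309). CENPI, a subunit of the CENP-H/I/K/M complex on chromosome X (transcript cluster 17105401), read 6.25, 6.70 and 7.15 against 7.89, 7.96 and 7.36. Each control lay above each TRIB3-shRNA array, with a difference of -1.03 (SE 0.24, adjusted p = 0.0341). CENPP, of the CENP-O/P/Q/U complex on chromosome 9 (transcript cluster 17086784), read 5.98, 5.86 and 6.46 against 6.88, 7.17 and 6.88, a difference of -0.88 (SE 0.18, adjusted p = 0.021).

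Subunits of the same complex had unlike values, and differences between them were not tested. Beside CENPI, its partners CENPH, CENPK and CENPM differed by -0.04, -0.05 and 0.14, and none passed the test, with adjusted p from 0.569 to 0.905. CENPK read 7.19, 7.07 and 7.63 against 7.47, 7.68 and 6.89, so its arrays numbered 3 crossed over. Without both of those arrays CENPK differed by -0.44 (limma adjusted p = 0.0694). Beside CENPP, its partners CENPU, CENPQ and CENPO differed by -0.51, -0.11 and 0.18, with adjusted p of 0.154, 0.657 and 0.368. CENPU read 6.79, 7.22 and 7.65 against 7.91, 7.76 and 7.53, so its groups overlapped through the arrays numbered 3. CENPL and CENPN, which together read the CENP-A nucleosome, stood at -0.19 and -0.21. The histone-fold subunits CENPT, CENPW and CENPX stood at -0.03, 0.33 and 0.06, and CENPW, with an adjusted p of 0.135, was the member of this group with the largest positive value.

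CENPA itself, the histone H3 variant that marks the centromere, read 7.78, 7.85 and 7.74 against 8.08, 7.75 and 7.70. Its difference was -0.05, and the 95% interval ran from -0.37 to 0.26, so a change of 2-fold either way lay outside it. The same held for CENPT (-0.34 to 0.29), CENPH (-0.34 to 0.26) and CENPX (-0.28 to 0.40). For CENPK the interval was wider, from -0.56 to 0.46, though a 2-fold change lay outside it too. CENPV, which is known to help organise pericentromeric chromatin and is not part of the CCAN, rose instead (transcript cluster 16841768, chromosome 17). It read 10.09, 10.20 and 9.96 against 9.52, 9.50 and 9.68, a difference of 0.52 (SE 0.13, 1.43-fold, limma adjusted p = 0.0402).

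**Figure D2:**
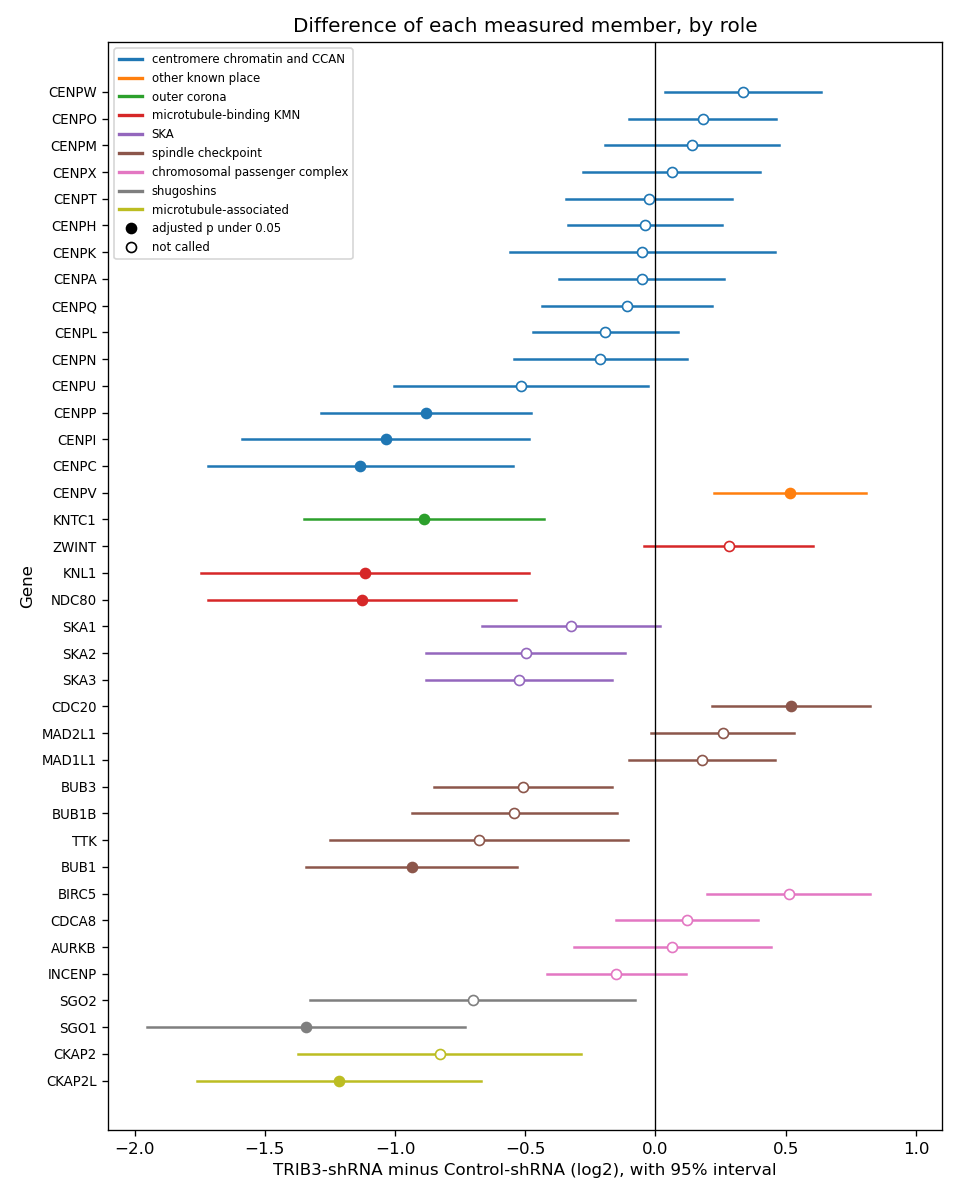
Difference between the arrays labelled TRIB3-shRNA and Control-shRNA on the log2 scale (horizontal axis), with its 95% interval from limma, for each of the 38 measured members (vertical axis), coloured by role, with filled points for an adjusted p below 0.05. The lowest value is that of SGO1, at -1.34, and the highest that of CDC20, at 0.52; the 95% intervals of the 11 called members do not cross 0.

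In the microtubule-binding network of the outer kinetochore, NDC80 and KNL1 fell and ZWINT did not pass the test. NDC80, the microtubule-gripping subunit for which its complex is named (transcript cluster 16850517, chromosome 18), read 5.54, 5.60 and 6.45 under the TRIB3-shRNA label and 7.15, 7.21 and 6.60 in the controls. Both arrays numbered 3 lay between the others, 0.16 apart, and the difference was -1.13 (SE 0.26, 2.18-fold lower, limma adjusted p = 0.0326). KNL1, the scaffold on which BUB1 and BUB3 assemble (transcript cluster 16799598, chromosome 15), read 5.87, 6.10 and 6.82 against 7.60, 7.65 and 6.88. Its groups were separated by only 0.06, the smallest gap among the members that fell, and the difference was -1.12 (SE 0.28, adjusted p = 0.0402). ZWINT, which binds KNL1, read 7.14, 6.79 and 7.18 against 6.83, 6.69 and 6.74, so its groups overlapped, and it differed by 0.28 (adjusted p = 0.23).

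KNTC1 (also known as ROD), the one measured gene of the complex that brings dynein to kinetochores, fell (transcript cluster 16758336, chromosome 12). It read 7.24, 7.66 and 7.88 against 8.61, 8.68 and 8.14, and the difference was -0.89 (SE 0.20, 1.85-fold lower, adjusted p = 0.0315). The SKA genes, whose complex follows shortening microtubules, gave 0 calls out of 3 by limma, with 2 lower at an unadjusted p of 0.05. Over all genes, 9.64% were called. SKA3 read 8.33, 8.64 and 8.69 against 9.24, 9.14 and 8.84 and differed by -0.52 (adjusted p = 0.0687). SKA2 and SKA1 differed by -0.50 and -0.32, with adjusted p of 0.0933 and 0.197. The groups did not overlap for any of the 3, beside 32.0% of all genes without overlap, 15.6% of them lower and 16.4% higher. Between the arrays numbered 3, however, the difference was only -0.0013 for SKA1 and -0.010 for SKA2.

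The spindle checkpoint genes went both ways: of 7 measured, BUB1 fell, CDC20 rose and 5 did not pass the test. The share called was 28.6%, beside 9.64% of all genes. BUB1, a kinase that recruits other checkpoint proteins and marks centromeric chromatin (transcript cluster 16901755, chromosome 2), read 7.43, 7.62 and 7.99 under the TRIB3-shRNA label and 8.72, 8.76 and 8.36 in the controls. The groups did not overlap, and the difference was -0.94 (SE 0.18, 1.91-fold lower, limma adjusted p = 0.0174), with a 95% interval from -1.34 to -0.53. CDC20, the protein that the checkpoint restrains (transcript cluster 16663514, chromosome 1), read 10.43, 10.38 and 10.12 against 9.75, 9.74 and 9.88. Each array labelled TRIB3-shRNA lay above each control, and the difference was 0.52 (SE 0.13, 1.43-fold, adjusted p = 0.0443).

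The 3 members that with CDC20 make up the mitotic checkpoint complex had values of either sign and did not pass the test. BUB1B, which encodes BUBR1, read 6.67, 6.85 and 7.28 against 7.46, 7.61 and 7.36 and differed by -0.54 (adjusted p = 0.0799). BUB3, the partner of BUB1 and BUBR1, read 9.11, 8.98 and 9.39 against 9.78, 9.72 and 9.50 and differed by -0.51 (adjusted p = 0.0667). Neither had overlapping groups. MAD2L1, which encodes MAD2, read 8.59, 8.43 and 8.55 against 8.26, 8.34 and 8.20, so that its groups did not overlap either, and differed by 0.26 (adjusted p = 0.199). MAD1L1, the kinetochore anchor of MAD2, differed by 0.18 (adjusted p = 0.371). TTK, the kinase MPS1 that starts checkpoint signalling, read 7.57, 7.43 and 8.39 against 8.61, 8.65 and 8.16, and the arrays numbered 3 crossed over (difference -0.68, adjusted p = 0.119).

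SGO1, which shields centromeric cohesin from separation before anaphase, had the largest difference of all members (transcript cluster 16951485, chromosome 3). It read 6.46, 6.93 and 7.62 under the TRIB3-shRNA label and 8.47, 8.49 and 8.07 in the controls, a difference of -1.34 (SE 0.27, 2.53-fold lower, limma adjusted p = 0.0204). Its 3 TRIB3-shRNA arrays spread more (SD 0.59) than its controls (SD 0.24), and array 3 was the highest of them. SGO2, its paralogue, read 4.29, 4.83 and 5.34 against 5.75, 5.74 and 5.08. There the arrays numbered 3 crossed over, and the difference of -0.70 did not pass the test (adjusted p = 0.133).

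CKAP2L and CKAP2, related proteins of spindle microtubules, were both lower in value, and CKAP2L fell (transcript cluster 16901957, chromosome 2). CKAP2L read 5.43, 5.76 and 6.25 against 7.22, 7.26 and 6.61, a difference of -1.21 (SE 0.24, 2.32-fold lower, adjusted p = 0.0198). CKAP2 read 7.60, 7.96 and 8.52 against 9.02, 9.03 and 8.52. Its arrays numbered 3 were level, and the difference of -0.83 did not pass the test (adjusted p = 0.0608). It was called under 7 of 19 alternatives.

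The chromosomal passenger complex, whose kinase corrects faulty attachments, gave 0 calls out of 4 by limma, beside 9.64% of all genes called. At an unadjusted p of 0.05 it gave 1 gene. That gene was BIRC5, which encodes survivin, the subunit that docks the complex on centromeric chromatin. BIRC5 read 8.88, 8.77 and 8.57 under the TRIB3-shRNA label and 8.26, 8.08 and 8.34 in the controls. The groups did not overlap, and the difference of 0.51 (SE 0.14) had an adjusted p of 0.0511. It passed the test under 9 of 19 alternatives, among them all 3 other scalings of the arrays. The kinase gene AURKB differed by 0.06 (95% interval -0.31 to 0.44), the docking subunit CDCA8, or borealin, by 0.12 and the scaffold INCENP by -0.15. None of these 3 passed the test, with adjusted p from 0.436 to 0.831, and their intervals exclude a 2-fold change.

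**Figure D3:**
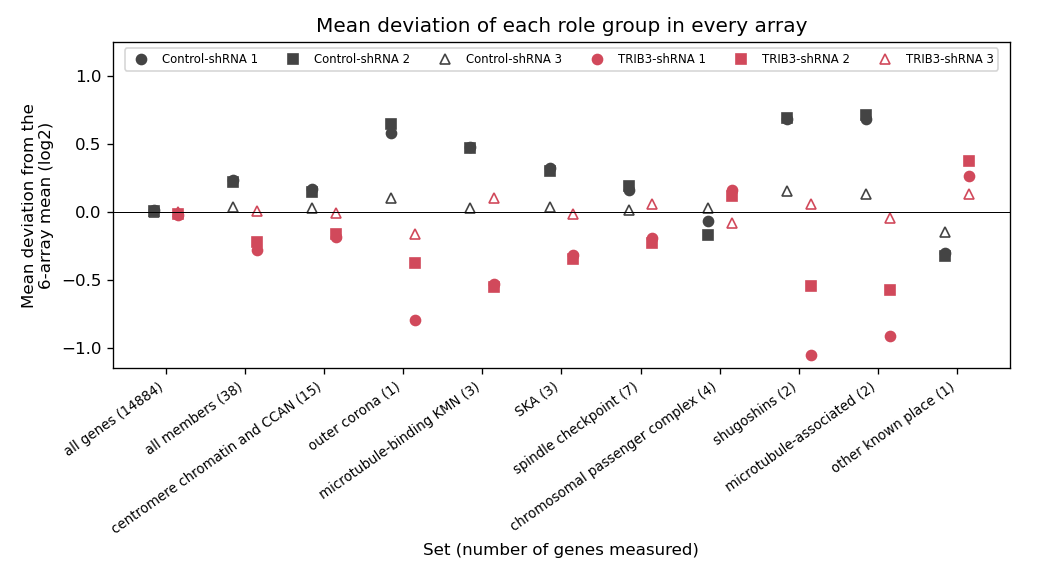
Mean deviation of each role group from its mean over the 6 arrays, on the log2 scale (vertical axis), with 1 point per array, for all genes, all members and each role group (horizontal axis, with the number of genes measured). Over all members the arrays labelled TRIB3-shRNA stand at -0.28, -0.22 and 0.01 and the controls at 0.23, 0.22 and 0.04, while the chromosomal passenger complex and CENPV have the opposite order in the arrays numbered 1 and 2.

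Averaged over all 38 members, the deviation from the mean of the 6 arrays was -0.28, -0.22 and 0.01 under the TRIB3-shRNA label and 0.23, 0.22 and 0.04 in the controls. The arrays numbered 3 thus differed by little, whereas those numbered 1 and 2 stood apart on opposite sides. For the passenger complex the order was turned, at 0.16, 0.12 and -0.08 against -0.07, -0.17 and 0.03. That is a mean of 4 genes, of which BIRC5 had much the largest difference (0.51). INCENP went the other way, at -0.15 and with groups that did not overlap. Over all genes the same means lay between -0.02 and 0.02. Groups did not overlap for 23 of 38 members (60.5%), 16 lower and 7 higher, beside 32.0% of all genes, 15.6% lower and 16.4% higher.

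The members that fell spanned more of the genome, in the median, than the others. The span of the gene on the genome, from the RefSeq table, had a median of 70.1 kb over the 9 that fell (26.3 to 295 kb), of 23.0 kb over the 27 not called, and was 4.22 kb for CDC20 and 10.9 kb for CENPV. Across the 38 members, span and difference were related with a Spearman rho of -0.53 (Pearson r of -0.46 with the logarithm of span), and over all 14884 genes rho was -0.24; genes share the same 6 arrays and are not independent replicates. Of the 4962 genes that spanned over 41.1 kb, 12.3% were called lower, and 6 of the 12 members among them fell. Of the 4961 genes that spanned up to 9.95 kb, 2.46% were called lower, and 0 of the 5 members among them. Between these bounds 4.45% of 4961 genes were called lower, and 3 of the 21 members there fell. The 27 members not called spanned 4.05 to 417 kb, and the longest of all, MAD1L1, differed by 0.18. With each array's trend on span removed, the same 9 members fell, with differences from -1.34 to -0.75 and adjusted p from 0.0178 to 0.0441, while CDC20 differed by 0.42 (adjusted p = 0.0604) and CENPV by 0.44 (adjusted p = 0.0546), and neither was called. The trend removed is an average over genes. Over all genes the median difference was 0.11 for spans up to 9.95 kb and -0.07 for spans over 41.1 kb. A trend of that size is small beside the differences of the members that fell. This fit therefore cannot tell how far span shapes the value of a single member, whether its call was kept or lost. The part of span in these differences was not tested.

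**Figure D4:**
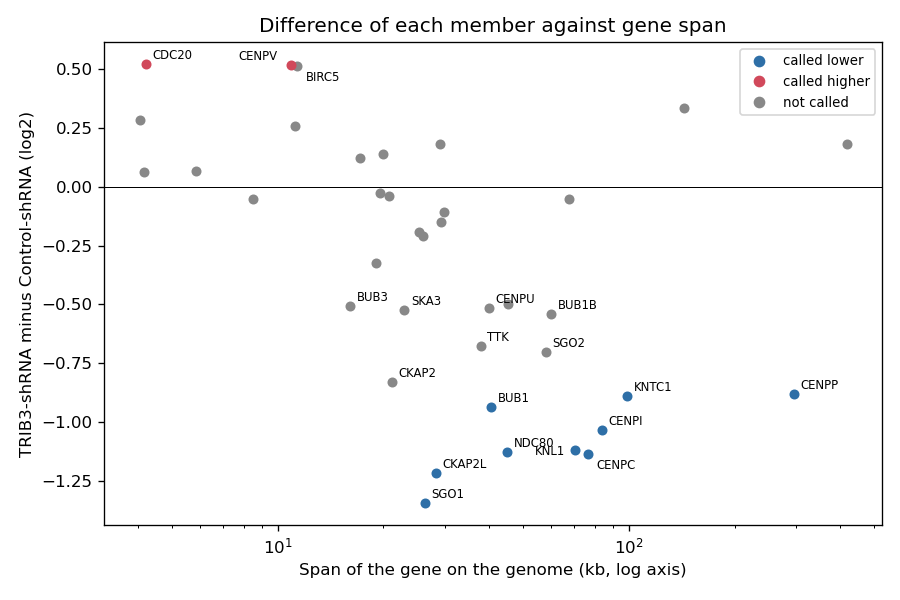
Difference between the arrays labelled TRIB3-shRNA and Control-shRNA on the log2 scale (vertical axis) against the span of the gene on the genome in kb (horizontal axis, log scale) for the 38 members, with called genes in colour. The 9 members that fell span 26.3 to 295 kb, and the 2 that rose 4.22 and 10.9 kb.

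Genes that work beside the kinetochore were read from lists chosen by function, with earlier results of these data known. Among 76 measured partner genes there were 8 falls and 1 rise and the median difference was -0.26. The share called, 11.8%, stood beside 9.64% of all genes tested. Among 13 measured genes of cohesin and separase, which hold and release sister chromatids, 2 fell: the cohesin loader NIPBL (-0.90, adjusted p = 0.0454) and the acetyltransferase ESCO2 (-0.86, adjusted p = 0.0496). The list's median was -0.60. Of 17 anaphase-promoting complex genes only CDC16, a scaffold subunit, fell (-0.84, adjusted p = 0.016), and the median was -0.12. Among 20 mitotic kinases and other kinetochore partners, SPAG5, a spindle protein (-0.60, adjusted p = 0.0315), and the chromatin kinase gene TLK1 (-0.75, adjusted p = 0.0407) fell. No call was made by limma among the 2 measured condensin genes, both lower at an unadjusted p of 0.05, or the 8 genes of CENP-A loading, of which 4 had an unadjusted p below 0.05.

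Of 16 proliferation markers and cell cycle transcription factors, 3 fell and 1 rose. Over all genes 9.64% were called, 6.39% lower and 3.25% higher. TOP2A, the topoisomerase that untangles sister chromatids, read 8.36, 8.72 and 9.27 under the TRIB3-shRNA label and 10.26, 10.19 and 9.61 in the controls and fell by 1.24 on the log2 scale (limma adjusted p = 0.0209). Its arrays numbered 3 were again the nearest of the opposing groups. The pocket protein genes RBL1 (-0.91, adjusted p = 0.00859) and RBL2 (-0.84, adjusted p = 0.0326), whose products hold cell cycle genes down, fell too. MYBL2, an activator that joins the MuvB complex, rose by 0.71 (adjusted p = 0.0372) and is named outside the rule of 3 genes per list, after its value was seen. FOXM1, another activator of G2 and M genes, differed by 0.23 (adjusted p = 0.259), and the proliferation marker MKI67 by -0.76 (adjusted p = 0.0577); these 2 were also named after their values were seen. The mitotic genes CCNB1, CDK1 and PLK1, chosen likewise, differed by -0.21, -0.26 and 0.31, and none passed the test. PCNA, another proliferation marker, was nearly level at 0.02 (limma adjusted p = 0.92). The transcription factor genes E2F1 and E2F2 differed by 0.35 and 0.29, and neither passed the test. These, too, were named after their values were seen. RBL1 lost its call under 1 of 19 alternatives, and the other partners named under the rule, CDC16, NIPBL, ESCO2, SPAG5, TLK1, TOP2A and RBL2, under 6 to 10.

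**Figure D5:**
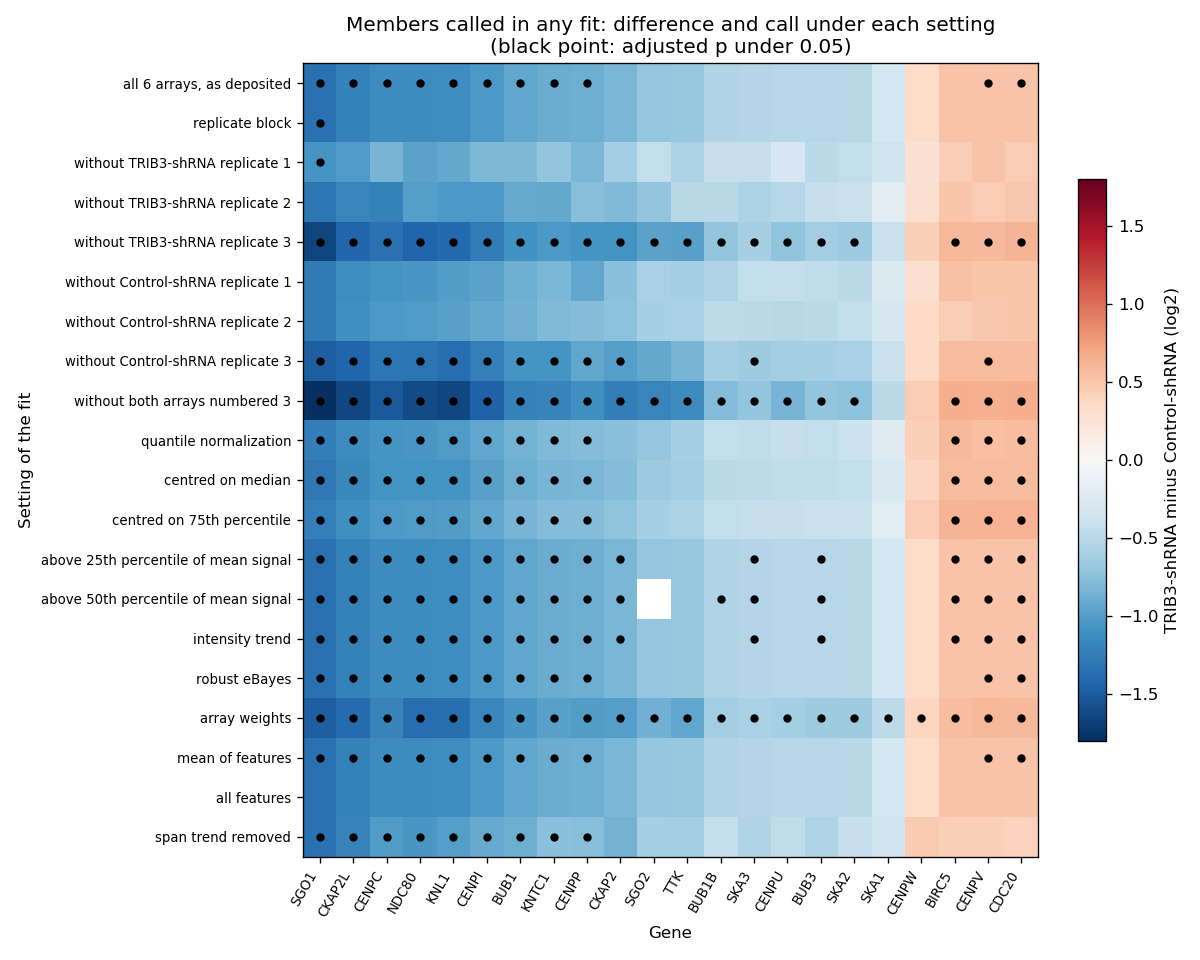
Difference between the arrays labelled TRIB3-shRNA and Control-shRNA on the log2 scale (colour) for the 22 members called in at least 1 fit (horizontal axis) under the reported fit and each of 19 alternatives (vertical axis), with a black point for an adjusted p below 0.05 and a blank cell where SGO2 was filtered out. Directions are the same in every fit shown, whereas the calls disappear without Control-shRNA replicate 1 or 2 or TRIB3-shRNA replicate 2 and over all features.

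Calls of single members followed the same pattern. All 11 kept their direction under all 19 alternatives, and each lost its call under at least 4. SGO1 lost its call under 4, with adjusted p up to 0.0935, and BUB1, CENPC, CENPI, CENPP, CKAP2L, KNL1, KNTC1 and NDC80 under 6 each, with adjusted p up to 0.155. CENPV lost its call under 7 and CDC20 under 8, with adjusted p up to 0.163. Of the 27 members not called, 11 were called under at least 1 alternative and 16 under none.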

How the data were processed

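Total RNA of 6 HCT-8 samples was measured on Affymetrix arrays, and 5.5 µg of single-stranded cDNA was labelled, per the labels' protocols. The authors deposited log2 signals, a scale read from the values' range. Affymetrix Expression Console 1.4.1 and RMA were the tools, per the submitters' processing notes. A genome build was not given in the sources used here. Of 53617 features, 16098 were paired with 1 symbol, 0 with several and 37519 with none; all 16098 matched the RefSeq table (GRCh38.p14), which gave symbols, spans and promoters. The brightest feature of a gene was kept (14884 genes). Groups and numbers came from titles. Under R 4.3.3, limma 3.58.1 was fitted over all genes (lmFit, then eBayes, with a group term only, two-sided). The same fit was run on simulated arrays with independent noise for each gene. Those arrays lack shifts shared across genes, so that run does not check the calls made here. Members and lists were chosen with earlier results of these data known. Values per array are given for members called or, without overlap, at least 0.5 apart, and for others that show a contrast; up to 3 called genes are named per partner list. The highest share of identical values in a pair of arrays was 0.127%. Scanner files were not used here, and the number of arrays limits the precision. Figures were drawn with Python 3.11.15.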

Additional observations from a re-analysis of the deposited data

How the results depend on the processing

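With the replicate number as a block, 402 genes (2.70%), 1 member (1 lower, 0 higher) and 1 partner gene were called. The deviations of same-numbered arrays from their group means correlated at -0.20, -0.09 and -0.43, and no array correlated best with its own number. Deviations from a mean of 3 arrays depend on each other, so these correlations cannot show whether the numbers mark pairs. The labels do not say what the numbers mean. Leaving out 1 array gave 199 to 2696 genes, 0 to 20 members (0 to 17 lower, 0 to 3 higher) and 0 to 32 partner genes. Without both arrays numbered 3 there were 3392 genes, 20 members (17 lower) and 37 partner genes, and the members' median was -0.41. Array weights gave 4099 genes (27.5%), 22 members (18 lower, 4 higher) and 41 partner genes. Over all 53617 features 1041 (1.94%) were called by limma, among them 0 members (0 lower, 0 higher) and 1 partner gene. At an unadjusted p below 0.05 there were 20 members, beside 11037 of all features. More features were tested there, by construction. With the span trend removed 0 members were called higher by limma (CDC20 0.42, adjusted p = 0.0604, and CENPV 0.44, adjusted p = 0.0546), beside 492 of all 14884 genes. At an unadjusted p below 0.05 in either direction there were 21 members in that fit, beside 4263 of all genes. Partner genes called were 18 when only genes above the 25th percentile of mean level were fitted, 22 above the 50th, and 19 with an intensity trend. Members called in these fits were 15, 16 and 15, and 17.1%, 25.8% and 13.1% of the genes fitted were called. The cause of the other changes was not tested. Calls with quantile normalization or either centring included all 11 members, and BIRC5 as well. After centring on the 75th percentile, the median over all genes was 0.14 in place of 0.04 and that over members -0.10 in place of -0.20, a distance of -0.24 that centring cannot change by construction. With quantile normalization the medians were -0.10 over members and 0.04 over all genes, a distance of -0.14. With centring on the 75th percentile the share of higher calls among all genes went from 33.7% to 50.8% (853 higher, 825 lower), and to 44.6% with median centring (659 higher, 818 lower).

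Directions turned only for 6 members that were not called in any fit. With quantile normalization, median centring and centring on the 75th percentile, in that order, CENPA was 0.042, 0.00149 and 0.051, CENPH 0.054, 0.015 and 0.065, CENPK 0.054, 0.00425 and 0.054, and CENPT 0.085, 0.029 and 0.079. CENPT was also 0.13 without both arrays numbered 3 and 0.045 with array weights. With the span trend removed AURKB was -0.040, CENPX -0.042 and CENPK 0.068. With 1 array left out, AURKB ran from -0.028 to 0.22, CENPA from -0.13 to 0.064, CENPH from -0.11 to 0.016, CENPK from -0.28 to 0.11, CENPT from -0.12 to 0.072 and CENPX from -0.032 to 0.16.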
